A study of Mus musculus with 6 samples.

Results

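Ribosome biogenesis genes that MYC is known to drive were followed in primary lymphoma B cells labelled PRDM15 KO and wild type, together with a few growth genes of the same MYC programme. The set holds 39 genes chosen by name, of which 38 were found among the 21448 genes of the deposited table. Noc2l was not analysed here. All 38 passed the filter on low values, a mean of at least 1 over the 6 libraries, which left 10533 genes for testing.

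The libraries were 3 labelled PRDM15 KO and 3 labelled wild type (WT), all from lymphoma B cells of E mu-Myc transgenic mice, in which an immunoglobulin heavy chain enhancer drives a Myc transgene in B-lineage cells. Both groups therefore carried the transgene. The protocol gave 4-hydroxytamoxifen (OHT, 50 nM) for deletion or ethanol as control for 24 hours to cells grown with IL7, with collection 3 days later. The labels give group, genotype and replicate number but not the agent of each library, so OHT was taken to have gone to the KO libraries. Neither the Cre driver nor whether equal replicate numbers mark the same tumour is stated in the labels, and the series calls the replicates biological. Reads assigned to genes numbered 28852951 to 41204788 in KO libraries and 38581112 to 47255421 in WT libraries.

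Ribosome assembly begins in the nucleolus, where RNA polymerase I transcribes the precursor of the ribosomal RNAs. Small nucleolar ribonucleoproteins (snoRNPs) then modify and help to cleave that precursor, while separate sets of assembly factors build the small and the large subunit. MYC binds E-box sequences near many of these genes, and large nucleoli are a classical feature of MYC-driven lymphomas.

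The core letters of that E-box were searched in the promoters of the set, and the windows that held them are shown because MYC is known to bind such letters. RefSeq windows (GRCm38.p6) running from 250 bases before a gene's start to 50 bases after it were matched for 32 of the 38 genes. The letters CACGTG, which read the same on both strands, lay in the windows of 7 of the 32 genes (21.9%), against 19.0% of 100 other ribosome biogenesis genes, 12.4% of 8322 tested genes and 8.09% of all 27025 genes with a window. A related form, CACGCG searched on both strands, lay in 10 of the 32 genes (31.2%), against 32.0% of the other ribosome biogenesis genes and 21.2% of the tested genes. The shares of the set were thus close to those of the other ribosome biogenesis genes. The 7 genes with CACGTG were Ltv1, Mybbp1a, Nop2, Pes1, Tsr1, Utp20 and Wdr43. A match describes letters in a window and does not show that a factor sits there. The windows of the 3 of these genes with the highest mean read level, not divided by gene length, follow, 5′ to 3′ on the strand of the gene, with CACGTG in capitals. They lie at chr11:72441077-72441376 on the plus strand for Mybbp1a, chr17:71615965-71616264 on the plus strand for Wdr43 and chr10:88826765-88827064 on the minus strand for Utp20.
Mybbp1a: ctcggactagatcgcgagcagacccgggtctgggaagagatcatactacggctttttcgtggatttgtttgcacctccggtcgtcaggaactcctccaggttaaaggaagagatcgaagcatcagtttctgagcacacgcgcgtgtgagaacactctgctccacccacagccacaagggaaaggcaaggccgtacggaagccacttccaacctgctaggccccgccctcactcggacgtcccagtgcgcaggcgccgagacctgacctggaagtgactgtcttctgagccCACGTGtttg
Wdr43: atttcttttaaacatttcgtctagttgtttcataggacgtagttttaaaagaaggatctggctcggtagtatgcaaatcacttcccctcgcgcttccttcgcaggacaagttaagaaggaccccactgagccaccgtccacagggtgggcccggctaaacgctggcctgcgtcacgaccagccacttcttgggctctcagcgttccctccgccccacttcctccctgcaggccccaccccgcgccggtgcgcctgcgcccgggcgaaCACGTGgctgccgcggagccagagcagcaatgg
Utp20: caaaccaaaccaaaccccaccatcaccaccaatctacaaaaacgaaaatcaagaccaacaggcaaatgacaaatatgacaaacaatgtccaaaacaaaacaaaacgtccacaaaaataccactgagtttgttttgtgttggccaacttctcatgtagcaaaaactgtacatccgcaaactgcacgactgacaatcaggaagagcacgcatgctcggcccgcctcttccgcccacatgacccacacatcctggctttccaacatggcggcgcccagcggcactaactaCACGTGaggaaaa

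In these 3 windows the letters began 41, 18 and 38 bases into the transcript for Mybbp1a, Wdr43 and Utp20, counting the start as base 1.

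Levels are given as CPM, reads of a gene scaled to the effective library size that the authors used, with no division by gene length. The targeted gene Prdm15 was at 40.2, 41.0 and 39.2 in KO replicates 1, 2 and 3, against 29.2, 47.2 and 41.3 in WT replicates 1, 2 and 3 (log2 change 0.06, exact two-sided permutation p = 1, where 0.1 is the smallest possible). The groups overlapped. A sum over the whole gene cannot show whether an exon was removed, so the directions below rest on the labels. The 10 B cell markers were all detected and summed to 1618 to 2147 CPM in KO and 1660 to 2150.0 CPM in WT libraries. Single B cell markers moved in both directions, with log2 changes from -1.15 to 1.64. Of the 10, 1 was higher and 3 were lower in all 3 pairs, against 16.7% and 29.9% of all tested genes. The 15 myeloid markers summed to 37.1, 2169 and 1170 in KO replicates 1, 2 and 3, against 59.4, 206.6 and 162 in WT replicates 1, 2 and 3. In pairs 2 and 3 of equal replicate number all 15 were higher in the KO library, in pair 1 only 4 were, and none was at 0 in all libraries. The 7 T cell markers summed to 3.86, 24.1 and 6.81 CPM in KO replicates 1, 2 and 3, against 1.66, 2.03 and 0.984 in WT replicates 1, 2 and 3, with 6, 7 and 6 of them higher in KO in pairs 1, 2 and 3 and none at 0 in all libraries. The 6 erythroid markers summed to at most 1.504 CPM. The 6 stromal or endothelial markers summed to 64.2, 56.2 and 102.3 CPM in KO replicates 1, 2 and 3, against 52.9, 52.0 and 63.3 in WT replicates 1, 2 and 3. The part of these transcripts in the results was not tested. In bulk RNA, fewer cells of a type and less RNA per cell cannot be told apart.

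No member passed the test between the groups. Of the 38, 0 rose and 0 fell in limma without the replicate number, and 0 rose and 0 fell with it, where 0.00949% and 0.873% of all tested genes were called (with the replicate number, 0.133% higher and 0.741% lower in KO). At an unadjusted p under 0.05 there were 1 and 8 members in these fits, against 4.06% and 21.0% of all tested genes, so the share in the fit with the replicate number was that of the background. On the recovered reads, edgeR called 0 members in either fit, where it called 0 of all genes without the replicate number and 0.370% with it (0.0475% higher, 0.323% lower). DESeq2 without the replicate number called 0 members and 1.04% of all genes (0.294% higher, 0.750% lower). With the replicate number DESeq2 called 4 members as higher, Ddx21, Utp20, Bop1 and Pa2g4, and 7.01% of all genes (3.02% higher, 3.99% lower).

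With the replicate number in the fit and the authors' scaling kept, the data placed narrow limits on how far these genes could differ. The largest changes were 1.21-fold upward for Ddx21 and 0.879-fold for Polr1c. In the fit with the replicate number, the 95% intervals of all 38 genes lay between 0.776-fold and 1.35-fold, taken per gene and without adjustment for their number. These intervals included no change for 30 genes, lay above it for 6 and below it for 2. Without the replicate number the limits were wider. On the log2 scale those 95% intervals reached from -0.67 to 0.48 for Gar1 and from -0.42 to 0.64 for Rrp9. None of these limits covers a change of scaling. With quantile normalization the log2 change of Ncl was 0.36, above its interval of -0.04 to 0.31 in the fit with the replicate number. With equal totals the median log2 change of the set was 0.06. The median log2 change of the set was 0.0037, beside -0.03 for all tested genes, and 34 of the 38 genes (89.5%) had a log2 change within 0.2 of 0, as did 71.7% of all tested genes. The median was -0.01, 0.13 and -0.02 in pairs 1, 2 and 3 of equal replicate number, 0.10 without WT replicate 1, 0.08 without KO replicate 3 and 0.09 without KO replicates 2 and 3, the libraries with more myeloid transcripts. The last 3 values all break the pairs. The very last sets KO replicate 1 against all 3 WT libraries, whereas pair 1 alone gave the -0.01 above. With pair 1, 2 or 3 left out as a whole, the median was 0.05, -0.04 and 0.03. The part of those transcripts in the pair medians was not tested.

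**Figure D1:**
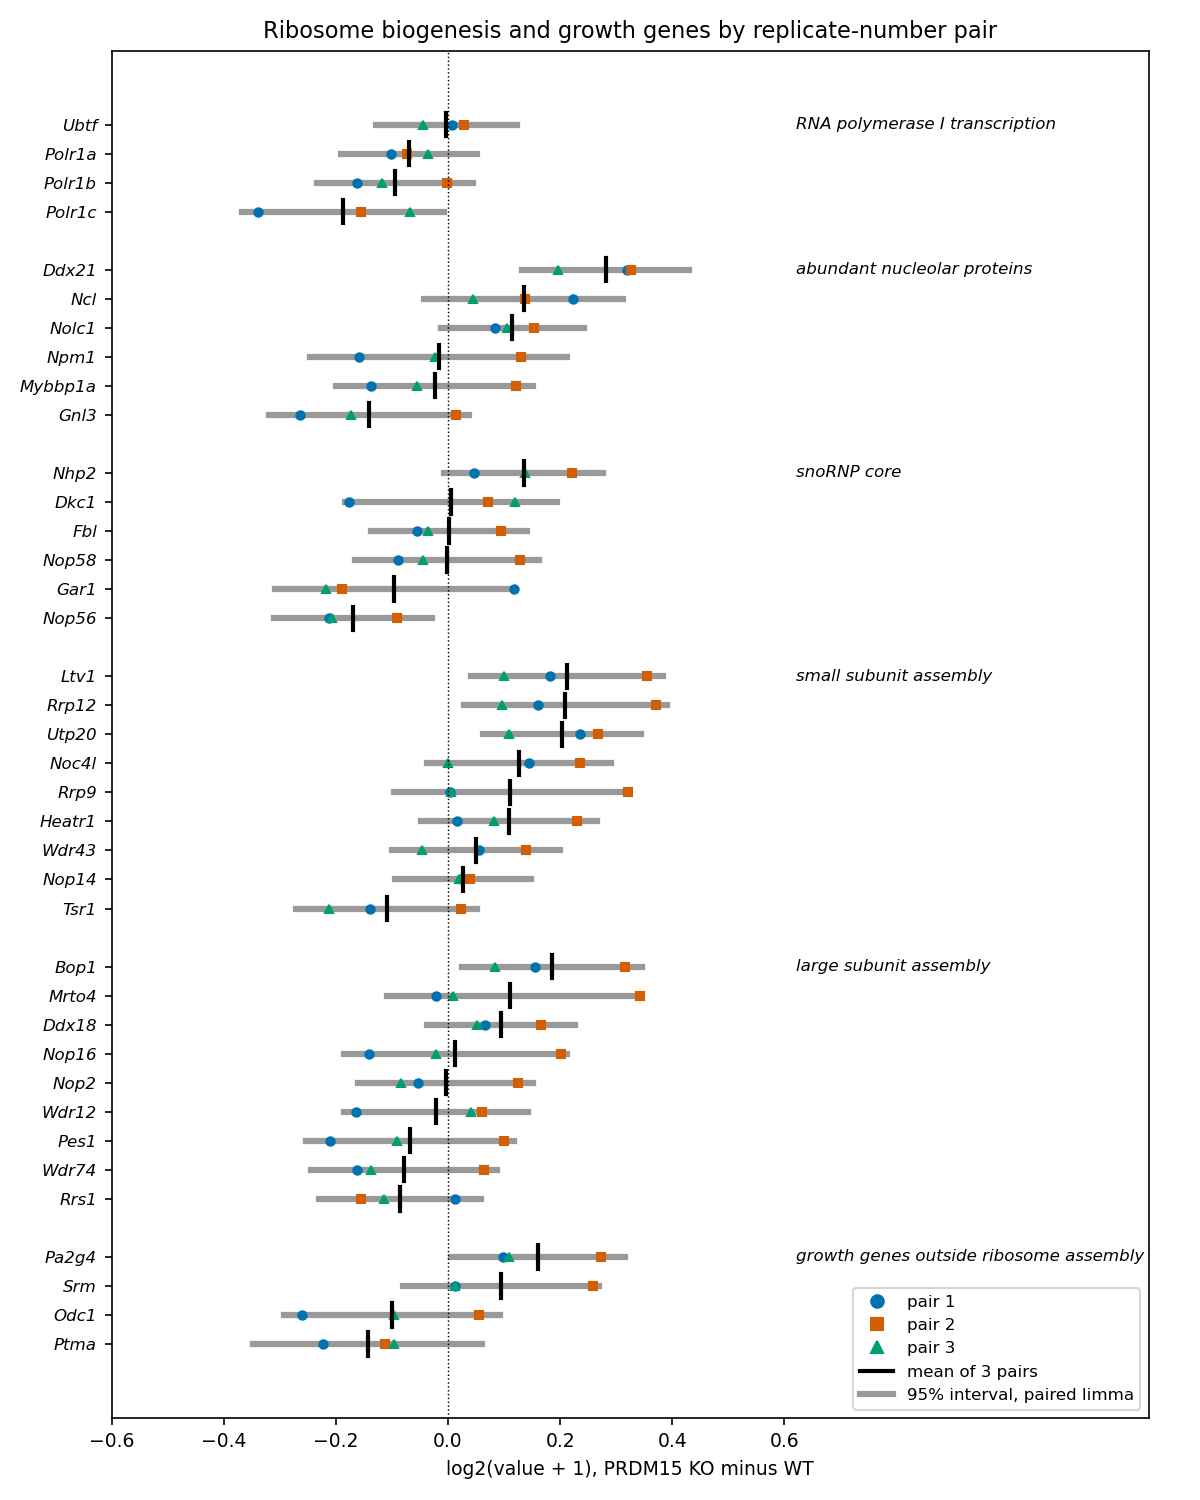
Difference in log2(value + 1), KO minus WT (horizontal axis), for each of the 38 genes grouped by role, with a symbol per pair of equal replicate number, a black bar for the mean and a grey bar for the 95% interval of the paired limma fit. Small subunit assembly genes lay mostly right of 0 (8 of 9 means), RNA polymerase I genes left of 0 (4 of 4 means, although Ubtf turns to 0.05 with equal totals), and no interval reached beyond -0.37 or 0.43.

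Counted by pair, more members leaned to the higher side in KO libraries than genes in general. Of the 38, 15 were higher in all 3 pairs (39.5%), against 16.7% of all tested genes, and 5 were lower in all 3 (13.2%), against 29.9%. With library totals made equal these counts were 20 and 3, against 26.4% and 20.0% of all tested genes, and with quantile normalization 17 and 5, against 20.2% and 25.6%. These counts describe the 3 pairs and carry no test. Groups that did not overlap were found for 2 members on the higher side, Ddx21 and Utp20, beside 3.21% of all tested genes, and for 1 on the lower side, Nop56, beside 6.29%.

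Genes for RNA polymerase I transcription were level to slightly lower in KO libraries, and none of the 4 passed. Polr1c, a subunit shared by RNA polymerases I and III, was at 64.2, 60.97 and 60.3 in KO replicates 1, 2 and 3, against 81.4, 68.0 and 63.3 in WT replicates 1, 2 and 3. It was lower in each pair, although KO replicate 1 lay above WT replicate 3 (log2 change -0.19, 95% interval -0.37 to -0.0072, paired adjusted p = 0.230). Polr1a, the largest subunit, averaged 222 ± 17.2 in KO and 234 ± 23.4 in WT libraries (SD, n = 3 each, log2 change -0.07). Polr1b, the second-largest subunit, averaged 159.5 ± 19.3 in KO and 170.1 ± 17.9 in WT libraries (log2 change -0.09). Both were lower in all 3 pairs, although Polr1b differed by less than 0.01 on the log2 scale in pair 2. Ubtf, the factor that opens ribosomal DNA for RNA polymerase I, was at 382, 428 and 402 in KO replicates 1, 2 and 3, against 380.4, 420 and 414 in WT replicates 1, 2 and 3. Its groups overlapped almost fully (log2 change 0.00 to 2 decimals, 95% interval -0.13 to 0.12), and its sign turned with equal totals (0.05). With library totals made equal, 1 of the 4 genes was lower in all 3 pairs rather than 3.

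The abundant nucleolar proteins divided into genes on the higher side and genes near 0 or on the lower side. Ddx21, an RNA helicase that couples RNA polymerase I transcription to ribosomal RNA processing, was at 945, 865 and 807 in KO replicates 1, 2 and 3, against 757, 689.5 and 704 in WT replicates 1, 2 and 3. Every KO library lay above every WT library. The log2 change was 0.28 (95% interval 0.13 to 0.43), with a paired adjusted p = 0.115 in limma, 0.102 in edgeR and 6.91e-06 in DESeq2. Ncl, nucleolin, an RNA-binding protein of the nucleolus, was at 2103, 2074 and 1756 in KO replicates 1, 2 and 3, against 1800.2, 1886 and 1703 in WT replicates 1, 2 and 3. It was higher in each pair with overlapping groups (log2 change 0.13, 95% interval -0.04 to 0.31, and 0.36 with quantile normalization). Nolc1, a chaperone of snoRNPs, was also higher in each pair, at 502 ± 43.4 in KO and 464 ± 43.2 in WT libraries (log2 change 0.11).

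Npm1, nucleophosmin, which shuttles ribosomal particles out of the nucleolus, showed no common direction. It was at 3944, 4098 and 2979 in KO replicates 1, 2 and 3, against 4402, 3743 and 3025 in WT replicates 1, 2 and 3, so the libraries of replicate 3 were low in both groups (log2 change -0.02, 95% interval -0.25 to 0.21, and 0.04 with equal totals). Processed pseudogenes of Npm1 and of Ptma can share reads with them, which leaves both levels uncertain. Mybbp1a, a nucleolar MYB-binding protein, averaged 599 ± 67.3 in KO and 609 ± 82.7 in WT libraries. Gnl3, nucleostemin, a nucleolar GTPase, was at 423, 389.5 and 363 in KO replicates 1, 2 and 3, against 508, 386 and 409 in WT replicates 1, 2 and 3 (log2 change -0.14). Its KO libraries lay within or below the WT range, and the change was -0.02 without WT replicate 1.

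**Figure D2:**
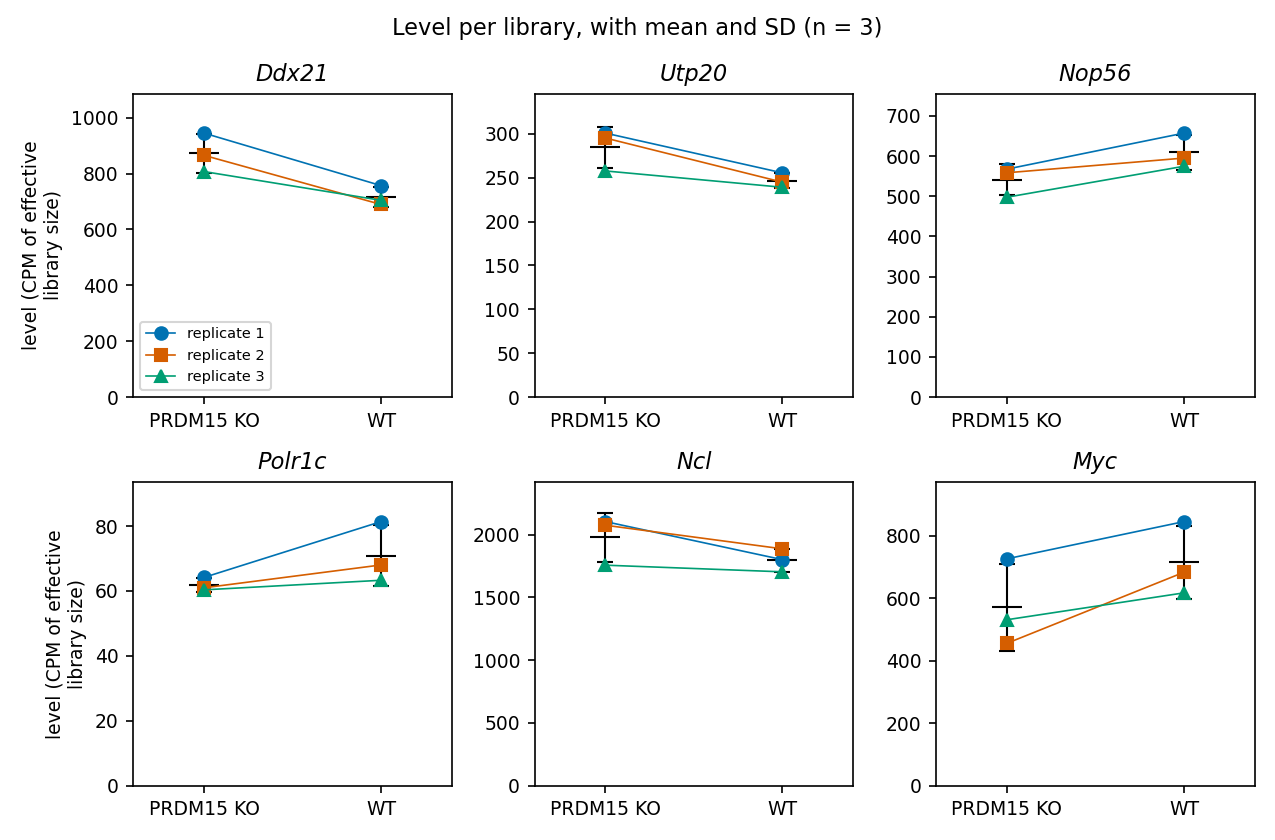
Library-size-scaled level in CPM, each vertical axis starting at 0, of Ddx21, Utp20, Nop56, Polr1c, Ncl and Myc in each library, KO at left and WT at right. Thin lines join equal replicate numbers, and the bars give the mean with its SD (n = 3). Ddx21 and Utp20 lay higher and Nop56 lower in every KO library than in any WT library, while the groups of Polr1c, Ncl and Myc overlapped.

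Core proteins of the snoRNPs were close to level. Nop56, a scaffold of the box C/D snoRNPs that guide ribose methylation, was at 567, 558 and 497.5 in KO replicates 1, 2 and 3, against 657, 595 and 574.5 in WT replicates 1, 2 and 3. All KO libraries lay below all WT libraries (log2 change -0.17, 95% interval -0.31 to -0.03, paired adjusted p = 0.194). Exons of Nop56 overlap those of Idh3b on the other strand in GENCODE M21, and the strand setting of the counting is not given in the sources used here. Gnl3, Nhp2, Tsr1 and Bop1 likewise share exon bases with a gene on the other strand, and Pa2g4 with Gm47275 on its own strand, so reads could be split between them. Nop58, the partner of Nop56, averaged 534 ± 50.2 in KO and 535 ± 62.1 in WT libraries. Fibrillarin, Fbl, the methyltransferase of the same particle, averaged 152.5 ± 14.8 in KO and 152.2 ± 13.7 in WT libraries. The log2 changes of Nop58 and Fbl were both 0.00 to 2 decimals, with 95% intervals of -0.16 to 0.16 and -0.14 to 0.14.

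In the box H/ACA particle, which makes pseudouridine, Nhp2 was at 287, 246.6 and 240.8 in KO replicates 1, 2 and 3, against 278, 211.5 and 219 in WT replicates 1, 2 and 3. Nhp2 was higher in each pair with overlapping groups (log2 change 0.14, 95% interval -0.01 to 0.28). The pseudouridine synthase Dkc1 averaged 370.5 ± 24.2 in KO and 369 ± 28.0 in WT libraries. Gar1 varied most of all members between libraries, with a highest level 1.67 times its lowest. It stood at 95.1, 56.9 and 57.0 in KO replicates 1, 2 and 3, against 87.5, 64.9 and 66.4 in WT replicates 1, 2 and 3. Both libraries of replicate 1 were high.

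Small subunit assembly genes were the members most often on the higher side. Of 9 genes, 7 were higher in all 3 pairs (77.8%), against 16.7% of all tested genes, and none passed the test. With equal totals or quantile normalization 8 were, against 26.4% and 20.2% of all tested genes. Of 44 other small subunit genes outside the set, 13 were higher in all 3 pairs (29.55%). The median log2 change of the 9 was 0.11, beside 0.02 for those 44. Utp20, a very large component of the small subunit processome, was at 301, 295 and 258 in KO replicates 1, 2 and 3, against 255.5, 245 and 239 in WT replicates 1, 2 and 3. Every KO library lay above every WT library (log2 change 0.20, 95% interval 0.06 to 0.34, paired adjusted p = 0.155 in limma and 0.0103 in DESeq2). Ltv1, which accompanies the small subunit out of the nucleus and is released in the cytoplasm, was at 88.6, 85.2 and 93.9 in KO replicates 1, 2 and 3, against 78.0, 66.4 and 87.6 in WT replicates 1, 2 and 3. KO replicate 2 lay below WT replicate 3, while each pair was higher in KO (log2 change 0.21, paired adjusted p = 0.188).

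Rrp12, an export and maturation factor of both subunits, averaged 85.7 ± 9.16 in KO and 73.8 ± 5.32 in WT libraries (log2 change 0.21, paired adjusted p = 0.205). Smaller values of the same sign in all 3 pairs came from Noc4l (log2 change 0.13), Rrp9, which binds the U3 snoRNA (0.11), Heatr1, needed for transcription and processing of the precursor (0.11), and Nop14 (0.03). For Noc4l and Rrp9 at least 1 pair differed by under 0.01 on the log2 scale. Wdr43, a protein of the small subunit processome, was at 498.5 ± 39.6 in KO and 481 ± 31.4 in WT libraries. Tsr1, a late cytoplasmic factor, was the member of this group with the lowest change, at 274, 241 and 230.5 in KO replicates 1, 2 and 3, against 301, 237.5 and 267 in WT replicates 1, 2 and 3 (log2 change -0.11). The groups of Tsr1 overlapped.

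Large subunit assembly genes held no common direction. Bop1, which forms the PeBoW complex with Pes1 and Wdr12, was at 303, 298 and 262 in KO replicates 1, 2 and 3, against 272, 239 and 247.5 in WT replicates 1, 2 and 3. It was higher in each pair, with KO replicate 3 below WT replicate 1 (log2 change 0.18, paired adjusted p = 0.205 in limma and 0.0399 in DESeq2). Its partners did not share that sign, since Pes1 averaged 252 ± 15.1 in KO and 265 ± 33.0 in WT libraries (log2 change -0.07) and Wdr12 174 ± 7.37 in KO and 178 ± 20.8 in WT libraries (-0.02). Rrs1, which takes part in building the large subunit's central protuberance in yeast, was at 110.6, 115 and 115.6 in KO replicates 1, 2 and 3, against 109.6, 128.6 and 125 in WT replicates 1, 2 and 3 (log2 change -0.09). WT replicate 1 lay below all KO libraries and the other WT libraries lay above them.

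The remaining large subunit genes were the helicase Ddx18 (log2 change 0.09, higher in all 3 pairs), Mrto4 (0.11), Nop16 (0.01), the ribosomal RNA methyltransferase Nop2 (0.00 to 2 decimals) and Wdr74 (-0.08). Mrto4, a factor that holds the place of the stalk protein on the early large subunit, took its value from pair 2, at 0.34, beside -0.02 and 0.01 in pairs 1 and 3.

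Among the growth genes outside ribosome assembly, the polyamine enzymes pointed in different directions. Odc1, ornithine decarboxylase, which makes putrescine, averaged 592 ± 33.2 in KO and 637 ± 72.9 in WT libraries (log2 change -0.10), and Srm, spermidine synthase, 193 ± 28.2 in KO and 181 ± 29.9 in WT libraries (0.09). Pa2g4, a growth regulator that also sits on ribosomes, was at 674, 667 and 532 in KO replicates 1, 2 and 3, against 629.8, 552 and 494 in WT replicates 1, 2 and 3. It was higher in each pair with overlapping groups (log2 change 0.16, 95% interval 0.0048 to 0.32, paired adjusted p = 0.231 in limma and 0.0310 in DESeq2). Ptma, prothymosin alpha, an abundant acidic chromatin protein, was at 3489, 4520.0 and 4260.0 in KO replicates 1, 2 and 3, against 4070.0, 4887 and 4551 in WT replicates 1, 2 and 3. Ptma was lower in each pair with overlapping groups (log2 change -0.14, 95% interval -0.35 to 0.06).

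Between genes, levels spanned a wide range. Divided by the length of the principal coding transcript in GENCODE M21, Ptma stood at 3363 CPM per kilobase in KO and 3703 in WT libraries, and Npm1 at 2250.0 in KO and 2280.0 in WT libraries. With the lengths used, Nop58 and Nop56 followed, at 312 and 288 in KO libraries and 312.5 and 324 in WT libraries. Their order depended on the group. Ncl stood at 241 in KO and 219 in WT libraries, with a length of 8202 bases, where the median of the members was 2364.5. A shorter transcript would place Ncl higher, so its rank is uncertain. The lowest levels per kilobase were those of Rrp12, at 19.8 in KO and 17.0 in WT libraries, and Polr1a, at 24.1 in KO and 25.4 in WT libraries. Both were below the Polr1b level of 39.9 in KO and 42.6 in WT libraries. The order uses an annotation of another genome build than the mm9 named in the submitters' processing notes.

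Most members followed replicate number in the same way in both groups. Of the 38 genes, 31 were higher in replicate 1 than in replicate 3 within both groups, as were 30.7% of all tested genes. WT replicate 1 was the highest WT library for 32 genes, and KO replicate 3 the lowest KO library for 30. As deviations from each gene's own mean on the log2 scale, the set's medians were 0.09, 0.08 and -0.09 in KO replicates 1, 2 and 3, against 0.13, -0.09 and -0.10 in WT replicates 1, 2 and 3. KO replicate 2 was thus the library whose pair partner differed most from it, and pair 2 was also the pair with the largest ratio of myeloid marker sums; the part of those transcripts was not tested.

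**Figure D3:**
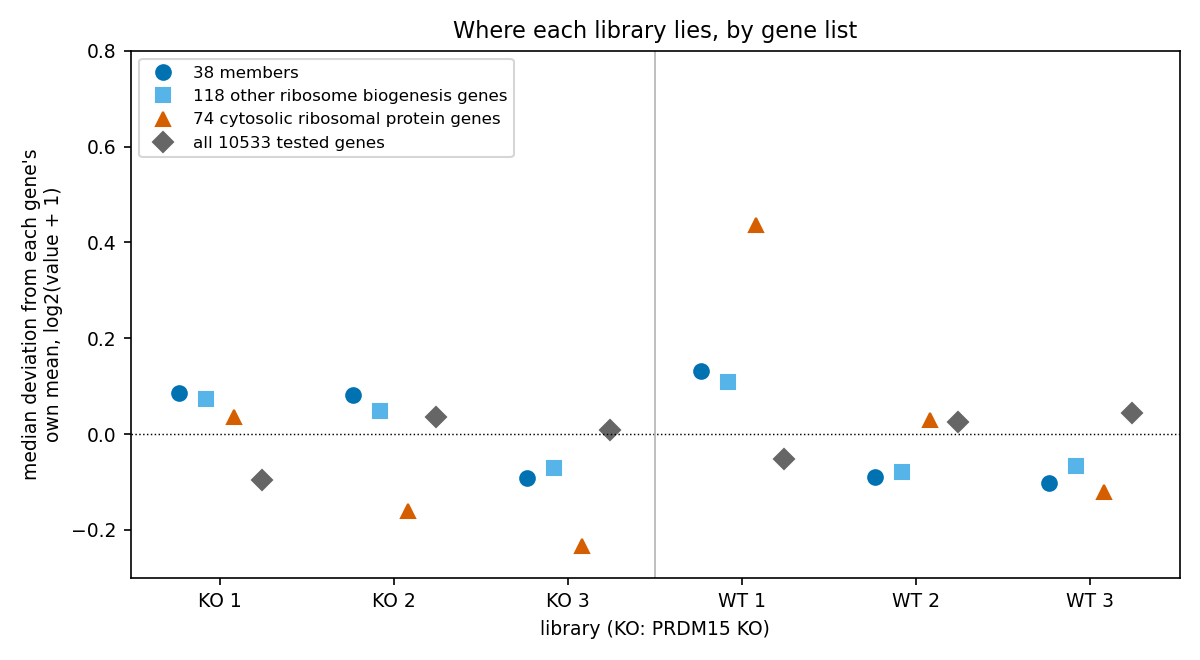
Median deviation of the genes of 4 lists from each gene's own mean over the 6 libraries, on the log2(value + 1) scale (vertical axis), in each KO and WT library. The 38 members and the 118 other ribosome biogenesis genes had like medians in each library and were highest in WT replicate 1 at 0.13 and 0.11, while the 74 ribosomal protein genes stood at 0.44 there and at -0.23 in KO replicate 3.

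No other gene of the assembly pathway passed the test either. Of 118 other tested ribosome biogenesis genes, 0 rose, 0 fell and 118 did not pass in either limma fit. At an unadjusted p under 0.05 there were 4 and 22 without and with the replicate number, against 4.06% and 21.0% of all tested genes. In both fits edgeR called 0, while DESeq2 called 0 and 7, against 1.04% and 7.01% of all tested genes. The 7 were Nol10, Pno1, Bysl, Utp3, Utp14a, Bms1 and Noc3l, each higher in KO. Pno1 and Bysl had log2 changes of 0.35 and 0.37. Groups that did not overlap were found for 14 genes on the higher side and 0 on the lower, beside 3.21% and 6.29% of all tested genes. The median log2 change of the 118 was 0.01, with -0.06, 0.11 and -0.02 in pairs 1, 2 and 3. Nol10, a small subunit factor, had the largest change in the list, at 70.9, 53.3 and 47.3 in KO replicates 1, 2 and 3, against 44.3, 38.8 and 36.2 in WT replicates 1, 2 and 3. Its groups did not overlap (log2 change 0.50, 95% interval 0.30 to 0.69, paired adjusted p = 0.0666 in limma, 0.0775 in edgeR and 0.000190 in DESeq2). The paired limma adjusted p of Nol10 was 0.0255 without pair 1, and 0.261 and 0.247 without pairs 2 and 3. The fit without pair 1 called 840 of all tested genes, and the fits without pair 2 or pair 3 called 0. Nop53, a large subunit factor, lay at the other end, at 225 ± 29.9 in KO and 265 ± 30.6 in WT libraries (log2 change -0.24, paired adjusted p = 0.164).

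Within the remaining groups of that list, the extremes were small. Among other RNA polymerase I genes they were Polr1e (log2 change 0.20) and Taf1d (-0.18), the second of which hosts several snoRNAs in its introns. Among other snoRNP genes they were Nufip1 (0.11) and Znhit3 (-0.15). Utp23 marked the low end of the small subunit genes (-0.16) and Noc3l the high end of the large subunit genes (0.21). None of these passed limma in either fit, and Noc3l had an adjusted p of 0.0407 in DESeq2 with the replicate number. In the limma fits 0 and 2 of 11 other polyamine genes were at an unadjusted p under 0.05, against 4.06% and 21.0% of all tested genes. Of the 11 polyamine genes 0 rose and 0 fell, with 0 called by edgeR or DESeq2. Their extremes were Sat1, which acetylates spermidine and spermine, at 13.3, 41.6 and 30.6 in KO replicates 1, 2 and 3 and 17.2 ± 2.73 in WT libraries, and the polyamine oxidase Paox, at 4.67 ± 2.38 in KO and 6.43 ± 1.88 in WT libraries. Sat1 was high in KO replicates 2 and 3, which also held more myeloid transcripts, and the part of those transcripts in its level was not tested. The paired limma adjusted p of Sat1 was 0.0123 without pair 1, and 0.651 and 0.584 without pairs 2 and 3.

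**Figure D4:**
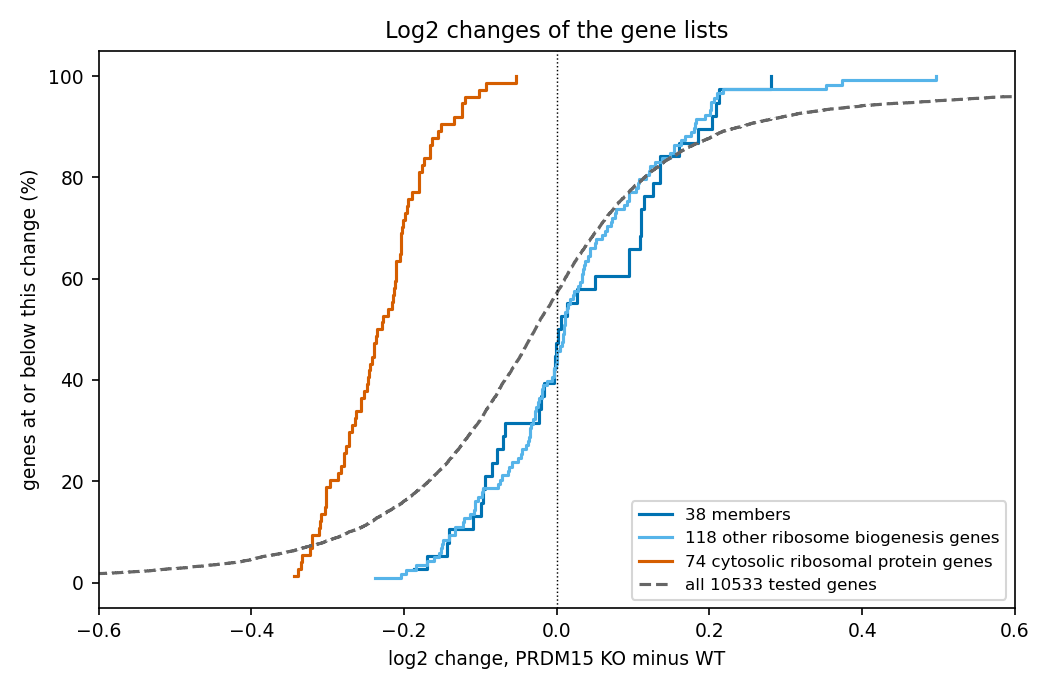
Share of genes at or below a given log2 change, KO minus WT (horizontal axis), for the 38 members, 118 other ribosome biogenesis genes, 74 cytosolic ribosomal protein genes and all 10533 tested genes. The curves of the members and the other biogenesis genes cross 50% near 0.00 and 0.01, that of the ribosomal protein genes at -0.23, and that of all genes at -0.03.

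Genes for the ribosomal proteins themselves all had a log2 change below 0, as did 18 of the 38 members, and none passed limma. Of 74 cytosolic ribosomal protein genes, taken by symbol after the values were seen, 0 were higher and 72 were lower in all 3 pairs, beside the 15 and 5 of 38 given above. The shares of all tested genes were 16.7% and 29.9%. Groups that did not overlap were found for 0 of the 74 on the higher side and 3 on the lower. The shares of all tested genes there were 3.21% and 6.29%. Counts with equal totals or quantile normalization are not given for this list. The median log2 change of the 74 was -0.23, with -0.39, -0.19 and -0.11 in pairs 1, 2 and 3, where the members had -0.01, 0.13 and -0.02. In both limma fits 0 of the 74 passed, with 0 and 57 at an unadjusted p under 0.05, against 4.06% and 21.0% of all tested genes. With the replicate number DESeq2 called 31 and edgeR 0, against 7.01% and 0.370% of all tested genes. The difference between both lists was not tested.

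Myc, whose reads can come from the transgene and from the endogenous gene without being told apart here, was at 727, 456 and 532 in KO replicates 1, 2 and 3, against 846, 684 and 618 in WT replicates 1, 2 and 3. Myc was lower in each pair, while KO replicate 1 exceeded WT replicates 2 and 3 (log2 change -0.34, 95% interval -0.57 to -0.11, paired adjusted p = 0.153 in limma, 0.195 in edgeR and 0.0299 in DESeq2). Its log2 change was -0.22 within pair 1, and 0.03 for KO replicate 1 against all 3 WT libraries, which breaks the pairs. Its paired limma adjusted p was 0.0432 without pair 1, and 0.357 and 0.383 without pairs 2 and 3. The fit without pair 1 called 840 of all tested genes. Mycn, a relative normally found in other tissues and early B-lineage cells, was at 0.399, 5.997 and 14.6 in KO replicates 1, 2 and 3, against 0.855, 16.0 and 34.0 in WT replicates 1, 2 and 3 (log2 change -0.95, paired adjusted p = 0.116 in limma, 0.0509 in edgeR and 9.985e-07 in DESeq2). It was lower in each pair and almost absent from both libraries of replicate 1. Its paired limma adjusted p was 0.000524 without pair 1, and 0.361 and 0.411 without pairs 2 and 3. Mycl stayed under 0.5 in each library. Max, the obligate partner of MYC, averaged 77.9 ± 4.47 in KO and 77.0 ± 5.48 in WT libraries. Of the 12 tested genes of the MYC and MAX network, 0 rose and 0 fell in limma. At an unadjusted p under 0.05 there were 0 and 3, against 4.06% and 21.0% of all tested genes. In all 3 pairs 0 of the 12 were higher and 6 were lower (50%), against 16.7% and 29.9% of all tested genes. The groups overlapped for each of the 12, and these counts carry no test. DESeq2 with the replicate number called 2, Myc and Mycn, against 7.01% of all tested genes.

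Among the 7 members with CACGTG in their promoter windows, log2 changes ran from 0.21 for Ltv1 and 0.20 for Utp20 through 0.05 for Wdr43, 0.00 for Nop2, -0.02 for Mybbp1a and -0.07 for Pes1 to -0.11 for Tsr1. They thus spread over most of the range of the set and none passed limma.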

How the data were processed

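Members and lists were chosen with earlier results of these data known. RNA-seq of 6 libraries (3 PRDM15 KO, 3 WT) was analysed from the authors' table, which is deposited as FPKM. The values are a deposited signal instead: in each library 100% were whole multiples of a single step within 0.01 reads, so reads per gene were divided by an effective library size and not by gene length. Per the submitters' processing notes, the tools were STAR 2.4.2a, CASAVA, edgeR and HTSeq, on build mm9, with no role given.

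Genes with a mean of at least 1 were analysed as log2(value + 1) with limma 3.58.1 (trended prior variance, two-sided, Benjamini-Hochberg over 10533 genes, threshold 0.05) in R 4.3.3. Fold changes on this scale understate those of low genes. Libraries sharing a replicate number deviated together from their group means (r over genes 0.73, 0.73 and 0.84 for numbers 1, 2 and 3), so the numbers were taken as pairs, and a fit that blocks on them is called paired. Adjusted p-values in the text are from the paired fits. edgeR 4.0.16 (quasi-likelihood) and DESeq2 1.42.0 were run on the recovered reads as alternatives. The methods were run on simulated data with no effect of replicate number and with planted changes larger than any of the members. That run therefore tests neither the pairing nor changes as small as those of the members. No libraries of a group agreed within counting noise (chi-square per degree of freedom of at least 68.1). Values in every library are given for the highest and lowest change and the smallest paired p in each role, and for the 3 members with the highest mean read level, not divided by length (no member passed limma); Gar1 was added after its values were seen, and the remaining members are summarised. Lengths and exon overlaps are from GENCODE M21, where 11 of 38 members share exon bases with another gene. Promoter windows are from RefSeq, GRCm38.p6.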

Additional observations from a re-analysis of the deposited data

How the results depend on the processing

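The count of all genes called went from 1 without to 92 with the replicate block, and was 0 with a pseudocount of 0.25, without the filter, with a mean of at least 10, with quantile normalization, without KO replicates 2 and 3, and in edgeR. It was 39 in edgeR with the block, 110 in DESeq2, 738 in DESeq2 with the block and 0 to 840 with a library or a pair left out, the 840 being the paired fit without pair 1. The count of members called was 0 in each of these settings apart from DESeq2 with the replicate block, where it was 4. The median log2 change of the members was -0.032 to 0.096 with a library left out, as low as -0.036 with a pair left out, and 0.086 without KO replicates 2 and 3. Members lower in all 3 pairs numbered 3 with equal totals. Some signs turned, also for values far from 0. With a library or pair left out, the log2 change ran from -0.14 to 0.20 for Prdm15, -0.047 to 0.036 for Ubtf, -0.16 to 0.13 for Npm1, -0.32 to 0.025 for Taf1d, -0.30 to 0.034 for Znhit3, -2.19 to 0.015 for Mycn and -0.035 to 0.067 for Max. Ubtf was at 0.018 without pair 3, 0.053 with equal totals, 0.012 with quantile normalization, 0.022 in edgeR, also with the block, and 0.022 in DESeq2, also with the block. Npm1 was at 0.054 without pair 1, and at 0.039, 0.014, 0.0018, 0.0081, 0.00075 and 0.0076 in the same 6 settings. Without KO replicates 2 and 3 the log2 change was 0.033 for Tsr1, 0.0996 for Npm1, 0.065 for Taf1d, -0.34 for Sat1 and 0.034 for Myc. That setting breaks the pairs, as does each fit with 1 library left out, which had no block. Within pair 1 the log2 changes of Tsr1, Npm1, Taf1d, Sat1 and Myc were -0.14, -0.16, -0.35, -0.16 and -0.22. With pair 1, 2 or 3 left out, Mycn was at -1.22, -0.79 and -0.84. In the same fits Taf1d was at -0.0996, -0.24 and -0.21, and Znhit3 at -0.0070, -0.30 and -0.15. Prdm15, Ubtf, Npm1 and Max turned with a pair left out as well. Beyond this, the cause of the turns was not tested. Of 559 single-gene values under alternatives, 516 kept their direction and call, 31 had the opposite sign and 12 were called; the block in limma with all libraries called no named gene, and without pair 1 it called Nol10, Sat1, Myc and Mycn. No detection limit was measured for 3 libraries a group at this depth.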
